A study of Mus musculus with 3 samples.

Results

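The cells described here are the choroid plexus epithelial cells of a single-cell RNA library from mouse hippocampus. They numbered 624 of the 6485 barcodes that passed the cell filter, from 6672 barcodes listed, and made up 9.62% of the cells (exact Clopper-Pearson 95% interval 8.92 to 10.4, counting error only). A barcode passed the filter with at least 500 genes and at most 15% of its UMIs (unique molecular identifiers, counted RNA molecules) from mitochondrial genes. It was called choroid plexus epithelium when Ttr gave at least 5% of its UMIs, when Kl, Clic6, Folr1 and Kcnj13 gave at least 3 UMIs together, and when the microglial genes C1qa, C1qb and C1qc gave at most 10. The cells were thus chosen by the measured UMIs of these genes, whose levels are given below as description, and since every gene was read in the same cells all comparisons of levels below are descriptions without a test.

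The choroid plexus hangs into the brain ventricles, the hippocampus borders the lateral one, and a single layer of epithelial cells covers its vascular core. These cells secrete cerebrospinal fluid by moving sodium, chloride, bicarbonate and water from blood to ventricle, and they release carrier and growth regulating proteins into it. Transthyretin, the product of Ttr, carries thyroid hormone and is their most characteristic secreted protein. Ependymal cells line the rest of the ventricle wall, arise from related neuroepithelium and carry tufts of motile cilia that move the fluid, so they are the closest neighbours in the library.

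The series holds 3 samples, of which the single-cell library was analysed, and the anti-Flag and IgG samples of cultured astrocytes are not analysed here. The library pooled 5 mice of genotype Aldh1l1CreERT2;Rosa26-LSL-tdTomato, in which tamoxifen turns on tdTomato in cells that use the astrocyte promoter Aldh1l1. The hippocampus of each was injected with the virus AAV-TIGRi-Hopx, which depends on Cre, carries EGFP and is directed against the transcription cofactor Hopx, and tissue was taken 3 weeks after tamoxifen. Dissociated cells were sorted to enrich for tdTomato-positive and EGFP-positive cells, with a target of 6000 cells. All groups of cells below come from this 1 library and carry the same genotype and treatment, no untreated library was analysed, and barcodes could not be assigned to a mouse, so no p-value is given and every interval covers counting error only. The sort was aimed at cells of the astrocyte lineage, whose markers were low in the choroid plexus cells, as given below.

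The choroid plexus barcodes had the highest median depth of the groups of cells compared here. They held a median of 10881.5 UMIs and 2842 genes, the 661 ependymal barcodes 6020 UMIs and 3080 genes. With each cell thinned to 2000 UMIs the order in genes became wider, 946.5 against 1400, and Ttr alone took 20.8% of the summed UMIs of the choroid plexus cells. Mitochondrial genes gave a median of 3.69% of UMIs, against 1.62% in ependymal cells and 1.09% in the 5861 other cells together. The 3072 cells with more than 10 UMIs of the C1q genes, called C1q-high below, and the 1504 cells with at least 5 UMIs of endothelial markers are used as background for free RNA.

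All 5 genes of the rule were present at high level. Ttr made up a median of 19.9% of the UMIs of a choroid plexus cell, from 5.36% to 42.8%, against a median of 0.0177% in ependymal cells. Kl, whose product is the FGF23 co-receptor klotho, stood at 1330 CPM (the summed UMIs of a gene in a group of cells, scaled to a common total) and had a UMI in 99.2% of the cells. Kcnj13, an inward rectifier potassium channel, stood at 836 CPM. Clic6, of the chloride intracellular channel family, stood at 685 CPM, and Folr1, the folate receptor that passes folate into the fluid, at 1187 CPM. Levels of different genes are not ranked against each other, since UMI counts also depend on how well each transcript is captured.

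The member lowest in Ttr had 5.36%, the barcode just outside 4.81%, and 16 barcodes lay between 2% and 5%. A further 33 barcodes had at least 5% Ttr but were no members: 31 of them exceeded the C1q limit, with 17 C1q UMIs or more against at most 6 in a member, and 3 had too few UMIs of the other markers, 1 barcode failing both. The 31 barcodes had a median of 15821 UMIs. In members the 4 other markers summed to a median of 43 UMIs, and 8 members had 3 to 5.

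**Figure D1:**
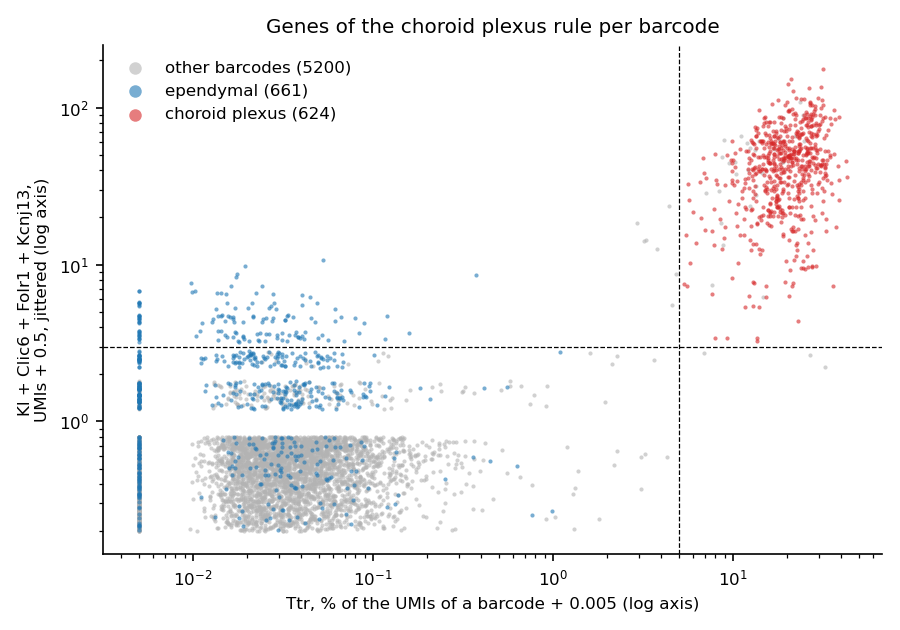
Each point is a barcode, with its Ttr share of UMIs (plus 0.005%) on the horizontal log axis and the summed UMIs of Kl, Clic6, Folr1 and Kcnj13 (plus 0.5, jittered) on the vertical log axis, and the dashed lines are the limits of 5% and 3 UMIs. The rule places the 624 choroid plexus cells (red) at upper right and the 661 ependymal cells (blue) under 2% Ttr, and 16 barcodes lie between 2% and 5% Ttr.

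Marker RNA of other cell types was found in many members and bears on several results below. Of the 624 cells, 37 held either at least 5 UMIs of the endothelial markers (27 cells), at least 5 of the ependymal genes Tmem212 and Ccdc153 (7 cells) or at least 3 of the T cell markers (3 cells), and 31 of these 37 were also called doublets by Scrublet, which called 34 choroid plexus and 51 ependymal barcodes. They are called mixed barcodes below. Ratios to ependymal or all other cells without the mixed barcodes leave them out of the choroid plexus cells only, with the comparison group kept whole. The endothelial list summed to 136 CPM in choroid plexus cells and 192 CPM in ependymal cells. By the way they were chosen, the mixed barcodes held most endothelial and T cell marker UMIs of the choroid plexus cells, 95.7% and 100%. The astrocyte list (Aqp4, Gfap, Slc1a2, Slc1a3, Aldoc, Gja1, Aldh1l1) summed to 60.3 CPM in choroid plexus cells against 2048 CPM in ependymal cells, with none of its 7 genes at 0 UMIs. The microglia list summed to 222 CPM against 1205 CPM, the fibroblast list to 25.02 against 13.6 CPM, and the neuron list to 5.79 against 7.23 CPM. The microglia list holds the C1q genes, which the rule limits in choroid plexus cells but not in ependymal cells. Of the latter, 25 had more than 10 C1q UMIs, and the difference is partly set by the rule. The log2 ratio of C1qa, -3.82, was -1.10 without Scrublet doublets in either group.

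UMIs of choroid plexus genes were also found in the other cells. A Ttr UMI was found in 71.1% of the C1q-high cells, at 205 CPM, with a median depth of 6363.5 UMIs, and in 71.7% of ependymal cells, at 229 CPM. For each 1000 Ttr UMIs the C1q-high cells held 105 Enpp2, 24.1 Ecrg4 and 5.52 Sostdc1 UMIs, against 84.3, 19.5 and 4.28 in the choroid plexus cells, while Prlr stood further off, at 14.5 against 5.57. In endothelial cells Enpp2 stood at 291 and Clic6 at 7.16, the latter against 3.30 in choroid plexus cells. Ependymal cells held 3103 Ecrg4, 879 Folr1, 398 Sostdc1, 63.2 Clic6 and 36.4 Prlr UMIs per 1000 Ttr UMIs, and 7.66 of Kl against 6.40 in choroid plexus cells. Kl, Kcnj13 and Htr2c stood at 1.75, 1.97 and 0.876 CPM in ependymal cells and at 1.70, 1.32 and 0.659 CPM in C1q-high cells. The part of free RNA in the levels of each gene was not tested.

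Against ependymal cells, 8610 genes were measured, which means at least 20 CPM in either group and 10 UMIs together. Of these, 899 genes (10.4%) were at least 2-fold higher in choroid plexus cells and 4533 (52.6%) at least 2-fold lower. The median measured gene had a log2 ratio of -1.12, or -0.74 with Ttr left out of the totals. Centred on that median gene, 2427 genes (28.2%) were higher and 2483 (28.8%) lower. Against all other cells, 1250 of 8325 genes (15%) were higher and 4038 (48.5%) lower, or 2465 (29.6%) and 2639 (31.7%) once centred on a median of -0.93. A gene under 10 CPM in one group that was measured through the other differs by 2-fold through the limit itself, so these counts are descriptions. Gene lists are given below by their counts beside these backgrounds, with both medians where the sign differs.

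The genes outside the rule with the largest ratio to ependymal cells included the transporters Atp2b3, Slc4a5, Slc16a8, Abca4 and Slc7a10, the channel subunit Kcne2 and the receptor Htr2c, beside Wdr86, Tmem72, Prcd, Prr32 and Cox8b. Kcne2, a regulatory subunit of potassium channels, had 1935 UMIs in choroid plexus cells and 0 in ependymal cells. Its level was 273 CPM (261 to 286), at least 416-fold higher when the ependymal sum is set to 3 UMIs, and it was seen in 85.9% of choroid plexus cells. None of the 661 ependymal cells had a Kcne2 UMI, which allows up to 0.454% of cells with a UMI (3 cells) and sets no limit on cells that express the gene. Wdr86 likewise had 937 UMIs against 0, at least 202-fold higher.

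The other 10 of these 12 genes had between 1 and 6 UMIs in all ependymal cells together. Atp2b3 is a plasma membrane calcium pump, Slc4a5 a sodium bicarbonate cotransporter, Slc16a8 a lactate transporter, Cox8b a subunit of cytochrome c oxidase and Htr2c the serotonin receptor 2C. Htr2c stood at 464 CPM against 0.876 CPM, a ratio of 529 with a wide interval of 207 to 1944, and was seen in 86.9% of choroid plexus cells. Cox8b stood at 686 CPM against 1.31 CPM, a ratio of 522 (240 to 1423). The widths show that the small ependymal counts limit the precision. Among the 12 genes with the largest ratio to all other cells were also Car12 (carbonic anhydrase 12), Wfdc2 and Prlr (the prolactin receptor), at ratios of 95.5 (77.0 to 120), 76.3 (66.5 to 87.9) and 66.8 (61.5 to 72.7). All other cells still include the 33 non-members with at least 5% Ttr and the 16 barcodes between 2% and 5%, whose choroid plexus RNA enters these ratios. A list of choroid plexus genes summed to 4281 CPM in the 624 cells outside the 4 named groups. It summed to 38.3 CPM in C1q-high and 123 CPM in endothelial cells. Leaving out other barcodes with at least 2% Ttr moved 15 gene or list ratios.

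Sequence upstream of the start sites of these genes is shown to let the reader see where short motifs lie. The windows are the 250 bases before an annotated start in RefSeq, build GRCm38.p6, in the direction of the gene. Capitals mark matches on either strand of TAATCC, letters recognised by OTX-type homeodomain proteins, of GTTGCC, part of the X-box bound by the RFX factors that control cilia genes, or of TGACGTCA, the cAMP response element. Kcne2 (chr16:92292139-92292388, plus strand), Prr32 (chrX:45090654-45090903, plus strand) and Abca4 (chr3:122044210-122044459, plus strand) are the windows with a match among the 12 leading higher genes, and Ccdc153 (chr9:44240427-44240676, plus strand) is an ependymal gene of the rule that holds one.
Kcne2: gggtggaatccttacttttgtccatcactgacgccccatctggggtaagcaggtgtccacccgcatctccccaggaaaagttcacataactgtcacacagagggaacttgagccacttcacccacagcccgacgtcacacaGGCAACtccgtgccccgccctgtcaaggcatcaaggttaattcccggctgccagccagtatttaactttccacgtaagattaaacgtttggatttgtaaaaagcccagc
Prr32: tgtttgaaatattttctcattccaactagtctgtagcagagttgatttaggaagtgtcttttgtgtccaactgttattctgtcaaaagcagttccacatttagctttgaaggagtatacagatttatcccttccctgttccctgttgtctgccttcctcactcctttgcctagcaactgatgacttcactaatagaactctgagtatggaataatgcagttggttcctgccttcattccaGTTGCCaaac
Abca4: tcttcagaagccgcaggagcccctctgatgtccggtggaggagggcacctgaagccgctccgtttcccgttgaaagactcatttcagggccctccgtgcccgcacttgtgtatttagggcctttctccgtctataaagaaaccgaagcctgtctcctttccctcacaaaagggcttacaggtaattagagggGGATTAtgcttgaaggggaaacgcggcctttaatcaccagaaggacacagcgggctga
Ccdc153: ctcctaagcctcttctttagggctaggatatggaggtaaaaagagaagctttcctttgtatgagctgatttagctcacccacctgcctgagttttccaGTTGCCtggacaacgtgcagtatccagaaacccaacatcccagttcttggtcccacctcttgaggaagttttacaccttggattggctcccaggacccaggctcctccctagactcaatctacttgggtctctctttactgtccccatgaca

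The match in Kcne2, of GTTGCC on the other strand, begins 109 bases before the start. That in Prr32, of GTTGCC on the gene strand, begins 10 bases before the start. The match in Abca4, of TAATCC on the other strand, begins 58 bases before the start. Of the 12 leading higher genes, 11 matched the RefSeq table, with 12 windows, and of the 12 leading lower genes 7 matched, with 8 windows and 0 matches of any of the 3 motifs. The match in Ccdc153, of GTTGCC, begins 152 bases before the start. Among the 8907 windows of all measured genes, TAATCC was found in 5.007%, GTTGCC in 11.5% and TGACGTCA in 2.51%. In the 116 windows of genes at least 16-fold higher in choroid plexus cells, the shares were 11.2%, 11.2% and 0%, and in the 903 windows of genes at least 16-fold lower they were 5.09%, 13.5% and 1.66%. The limit of 16-fold was chosen after the ratios were seen, and these shares are a description of letters in windows of 250 bases.

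Genes that define the choroid plexus were high as a group. Of the 19 measured members of a list of such genes, 17 were higher than in ependymal cells and 0 lower, against the background of 10.4% higher, with a median log2 ratio of 6.63. The median is 5.15 with the 3 genes at 0 UMIs in ependymal cells set to 3 UMIs. The other 2 were the roof plate transcription factors Lmx1a, at 21.5 CPM against 18.0 CPM, and Msx1, at 130 CPM against 92.0 CPM. The list was written with earlier results of these data known, and several of its genes mark the same cells as the rule.

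Otx2, the homeodomain factor that specifies and maintains choroid plexus epithelium, stood at 225 CPM (214 to 236) in choroid plexus cells and 40.1 CPM (34.5 to 46.3) in ependymal cells. It was present in 82.4% of the former and 14.7% of the latter, and at 0.235 CPM in C1q-high cells. Single choroid plexus cells ranged from 0 to 1223 CPM with a median of 195 CPM. Enpp2, which encodes autotaxin, the secreted enzyme that makes lysophosphatidic acid, stood at 17506 CPM (17408 to 17603) against 81.5 CPM, a ratio of 215 (194 to 239). It had a UMI in 100% of the choroid plexus cells and ranged from 522 to 75825 CPM in single cells.

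**Figure D2:**
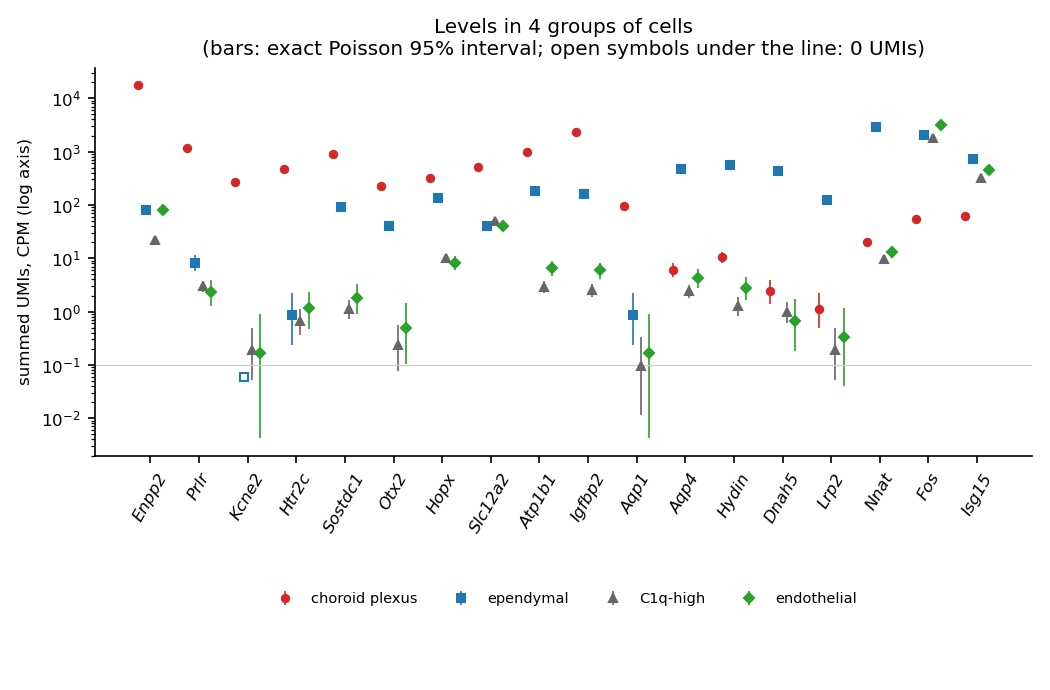
Summed UMIs as CPM on a log axis for 18 genes in 4 groups of cells, with exact Poisson 95% intervals and open symbols under the grey line for 0 UMIs. Kcne2, Htr2c, Prlr and Aqp1 are at most 8.32 CPM in the other 3 groups, Sostdc1, Otx2 and Hopx are also raised in ependymal cells over the other groups, and Aqp4, Hydin, Dnah5 and Nnat show the opposite order.

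Among secreted and carrier proteins, 16 of 28 measured genes were higher and 7 lower, beside backgrounds of 10.4% higher and 52.6% lower. Their median log2 ratio was 1.86. Igfbp2, which binds insulin-like growth factors, stood at 2379 CPM against 159 CPM, a ratio of 15.01 (13.9 to 16.2), and had a UMI in 99.8% of the cells. Ptgds, a prostaglandin D synthase and lipid carrier, stood at 2578 CPM against 90.7 CPM, a ratio of 28.4 (25.8 to 31.4), and its log2 ratio of 4.83 became 6.96 without the Scrublet doublets of both groups. Ecrg4, the precursor of the peptide augurin, was at 4053 CPM against 710 CPM and thus high in both lining cell types. Igf2, a growth factor known from the adult choroid plexus, was at 23.3 CPM in choroid plexus cells, in 23.2% of them, and had 0 UMIs in ependymal cells.

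Other carriers ran the other way. Ceruloplasmin (Cp), the copper-binding ferroxidase, stood at 3.53 CPM against 259 CPM, and 80.0% of its few choroid plexus UMIs lay in the 37 mixed barcodes. Apoe was at 4467 CPM against 9304 CPM, a log2 ratio of -1.06 that turns to 0.06 when centred on the median gene. Trf, the iron carrier transferrin, stood at 516 CPM against 63.3 CPM, but was also at 344 CPM in C1q-high cells. Its spread among choroid plexus cells was wide, with a median of 221 CPM and a highest value of 5404 CPM.

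Genes of fluid secretion were more often higher than lower. Of the 27 measured genes of ion and water transport, 14 were higher, 7 lower and 6 within 2-fold, with a median log2 ratio of 1.92. The backgrounds were 10.4% higher and 52.6% lower. Of the 7 lower genes only Aqp4 is described below. On the blood side, Slc4a10, which brings bicarbonate in, stood at 359 CPM against 60.4 CPM, a ratio of 5.94 (5.24 to 6.75), and the anion exchanger Slc4a2 at 244 CPM against 64.6 CPM, a ratio of 3.78 (3.34 to 4.29). Carbonic anhydrase 2 (Car2), which supplies bicarbonate inside the cell, stood at 567 CPM against 14.5 CPM, a ratio of 39.3 (30.8 to 50.9). At the ventricular face, the cotransporter Slc12a2 (NKCC1) stood at 507 CPM against 39.4 CPM, a ratio of 12.9 (11.1 to 15.04), and Slc4a5 at 159 CPM against 0.219 CPM.

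Atp1b1, the beta subunit of the sodium pump, stood at 973 CPM (950 to 996) against 180 CPM (168 to 193), a ratio of 5.41 (5.03 to 5.83), and had a UMI in 98.4% of choroid plexus cells. The water channels separated the 2 cell types in opposite directions. Aqp1 stood at 97.4 CPM (90.2 to 105) against 0.876 CPM (0.239 to 2.24). Aqp4, the astrocyte and ependymal water channel, stood at 6.08 CPM (4.40 to 8.19) against 476 CPM (456 to 497), and 51.2% of its choroid plexus UMIs lay in mixed barcodes.

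Transporters of nutrients, vitamins and hormones were higher for 12 of 21 measured genes and lower for 5, beside backgrounds of 10.4% higher and 52.6% lower. Their median log2 ratio was 1.18. The thyroid hormone transporter Slco1c1 stood at 393 CPM against 58.7 CPM, and endothelial cells, which also carry it, had 1190 CPM. The copper transporter Slc31a1 stood at 261 CPM against 30.7 CPM, the sulfate transporter Slc13a4 at 207 CPM against 14.7 CPM and the glucose transporter Slc2a12 at 182 CPM against 45.5 CPM. The proton-coupled folate transporter Slc46a1 was at 23.0 CPM against 15.3 CPM, a ratio of 1.503 (1.13 to 2.02). The endocytic receptor Lrp2 (megalin) was nearly absent, at 1.13 CPM (0.488 to 2.23) against 125 CPM.

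Efflux and drug transporters gave 4 higher and 3 lower of 11 measured, beside backgrounds of 10.4% higher and 52.6% lower. Their median log2 ratio of -0.69 turned to 0.43 when centred. Slc29a4, a transporter of monoamines, stood at 68.4 CPM against 0.219 CPM, and Slc22a8, the organic anion transporter OAT3, at 43.7 CPM against 2.19 CPM. Without the 37 mixed barcodes 2 of the 11 were higher and 5 lower. Abcg2 then went from a log2 ratio of 1.04 to 0.19 and Slco1a4 from 1.27 to 0.73, at 1275 and 2367 CPM in endothelial cells. With the Scrublet doublets removed from both groups the 2 ratios were instead 2.09 and 2.34, and 4 genes were higher and 3 lower of 10 measured, so these calls depend on which barcodes are left out. Slc22a8 went from a log2 ratio of 4.25 to 5.62 without doublets.

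Of the 19 measured genes of junctions, polarity and cytoskeleton, 4 were higher and 8 lower, beside backgrounds of 10.4% higher and 52.6% lower. Their median log2 ratio was -0.94, or 0.18 once centred. The tight junction claudins of the choroid plexus barrier led the higher ones. Cldn2 stood at 124 CPM against 14.7 CPM, Cldn1 at 43.2 CPM against 0.438 CPM and Cldn3 at 34.9 CPM against 0 UMIs. The keratin Krt18 stood at 382 CPM against 95.5 CPM. Cldn5, the endothelial claudin, was at 31.0 CPM in choroid plexus cells, against 2362 CPM in endothelial cells, was seen in 5.61% of choroid plexus cells, and had 96.4% of its UMIs there in mixed barcodes, some of which were chosen by it. The gap junction gene Gja1 and N-cadherin (Cdh2) were low, at 4.10 CPM against 349 CPM and 10.3 CPM against 153 CPM.

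Receptors were split. Of 17 measured genes for hormone and transmitter receptors, 4 were higher and 11 lower, beside backgrounds of 10.4% higher and 52.6% lower. Their median log2 ratio was -1.62, or -0.50 once centred. Prlr stood at 1157 CPM (1132 to 1182) against 8.32 CPM (5.89 to 11.4) and was present in 96.3% of choroid plexus cells, and the leptin receptor Lepr stood at 40.7 CPM against 0.438 CPM. Ramp2, a partner of the adrenomedullin receptor, was the fourth, and its log2 ratio of 1.11 was 0.33 without the mixed barcodes, which left 3 of the 17 higher, and 2.17 without Scrublet doublets, which left 4. On the lower side were Ramp1, at 3.67 CPM against 503 CPM, and the glial receptor Gpr37l1, at 3.11 CPM against 293 CPM.

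Motile cilia genes were lower as a group. The ependymal cells were chosen by at least 5 UMIs of Foxj1, Ccdc153, Tmem212, Dynlrb2 and Rsph1 together. This list, like that of ependymal and radial glial genes, is therefore high in them partly by selection. Of 28 measured members outside the rule, 26 were lower and none higher, against the background of 52.6% lower, at a median log2 ratio of -4.30, or -3.19 once centred. The axonemal dynein Dnah5 stood at 2.40 CPM against 424 CPM and the central pair gene Hydin at 10.5 CPM against 567 CPM. Both passed the measurement limit through the ependymal cells. Mixed barcodes held 76.5% of the Dnah5 UMIs. The radial spoke gene Rsph9 was level, at 227 CPM (216 to 238) against 224 CPM (211 to 239), with a UMI in 81.6% and 71.3% of cells, and at 1.93 CPM in C1q-high cells. Tekt1, a microtubule protein of the axoneme, stood at 103 CPM against 315 CPM and was seen in 61.7% of choroid plexus cells.

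The ependymal marker genes of the comparison rule were uneven in the same way. Tmem212 and Ccdc153 stood at 12.6 and 9.05 CPM in choroid plexus cells, and 86.5% and 78.1% of these UMIs lay in the mixed barcodes, some of which were chosen by these genes. Rsph1 stood at 246 CPM, with a UMI in 83.5% of choroid plexus cells, and Dynlrb2 at 112 CPM, in 63.3%. Foxj1, the master regulator of motile cilia, stood at 26.6 CPM against 518 CPM. It was seen in 23.9% of choroid plexus cells, or 4.40% at 2000 UMIs, against 0.521% and 0.336% of C1q-high cells. In all, 259 choroid plexus cells (41.5%) held at least 5 UMIs of the 5 ependymal markers, and the levels of Rsph1, Rsph9 and Foxj1 in C1q-high cells were 2.26, 1.93 and 0.801 CPM. Against all other cells, ependymal cells included, 4 of 24 measured motile cilia genes were higher and 14 lower. The backgrounds of that comparison were 15% higher and 48.5% lower, so these counts lie near those of all measured genes. Genes shared by primary and motile cilia were lower than in ependymal cells for 20 of 22 measured, against the background of 52.6% lower. Their median log2 ratio was -2.51, and the intraflagellar genes Ift20, at 201 CPM against 271 CPM, and Ift57, at 141 CPM against 185 CPM, lay within 2-fold.

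Ependymal and radial glial genes outside the rule were lower for 18 of 19 measured genes, none being higher, against the background of 52.6% lower. They had a median log2 ratio of -5.0. Nnat stood at 20.2 CPM against 2926 CPM and S100b at 6.08 CPM against 626 CPM. Without the mixed barcodes the median became -5.82 and Nnat 3.53 CPM. Clu (clusterin) was the member within 2-fold, at 1379 CPM against 2261 CPM. The 12 genes most depleted against ependymal cells were Ect2l, Cnksr2, Ucma, Pamr1, Nrg1, Clec3b, Cd109, Anxa1, Stoml3, Krt15, Tmem132b and Akap14, with 2 to 9 UMIs each in all choroid plexus cells. Ucma had 9 UMIs against 2000, of which 88.9% were in mixed barcodes, and Stoml3 and Akap14 had 0 UMIs outside them.

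**Figure D3:**
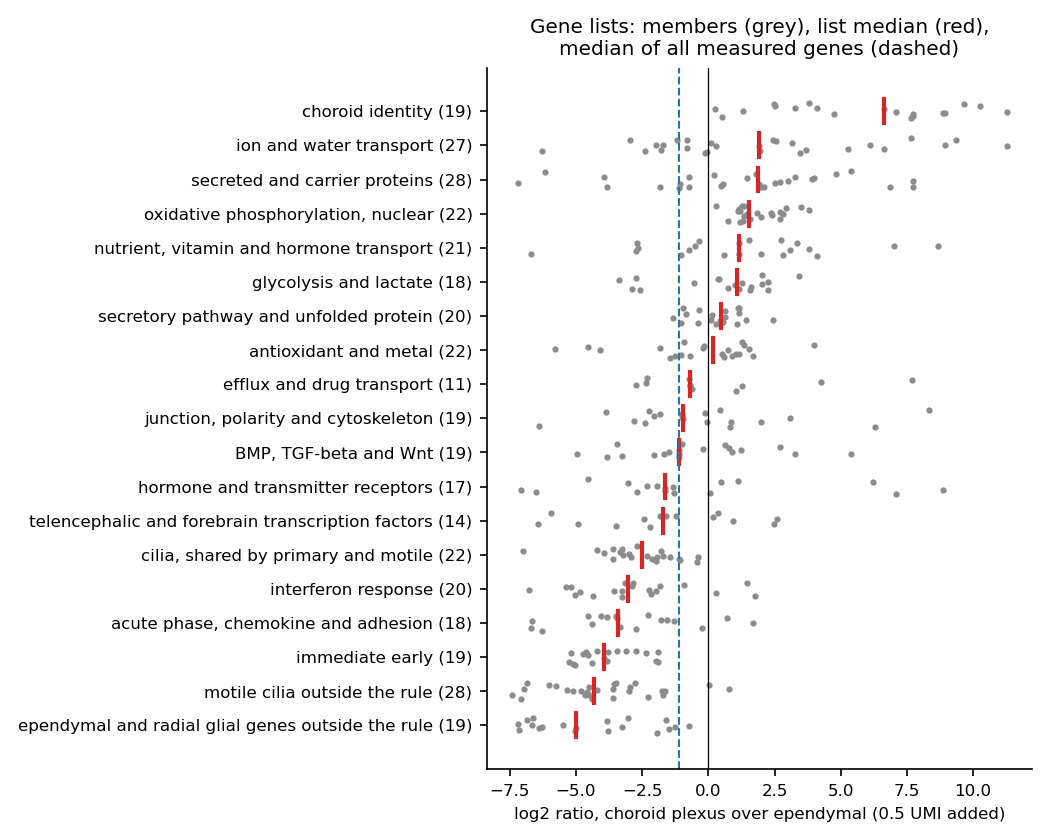
Log2 ratio of choroid plexus over ependymal cells for each measured member (grey) of 19 gene lists, with the list median in red, 0 as a solid line and the median of all measured genes, -1.12, as a dashed line. Choroid identity lies highest with a median of 6.63 and ependymal and radial glial genes lowest with -5.0.

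Transcription factors of regional identity were sparse. Of 14 measured forebrain factors, 2 were higher, Otx2 and Six3, the latter at 32.6 CPM against 5.26 CPM, and 9 were lower, among them Lhx2 at 0.565 CPM against 55.2 CPM and Pax6 at 2.12 CPM against 65.9 CPM. Of the hindbrain list of 20 genes, Meis2 and Egr2 passed the measurement limit, through the ependymal cells, at 2.12 CPM against 224 CPM and 1.84 CPM against 27.8 CPM. Of the 19 measured genes of BMP, TGF-beta and Wnt signalling, 4 were higher and 10 lower. For these and the forebrain factors the backgrounds were 10.4% higher and 52.6% lower, and the lower share of the signalling list lies near its background. Sostdc1, a secreted inhibitor of BMP and Wnt, stood at 888 CPM (866 to 911) against 91.1 CPM, and Bmp4 at 22.8 CPM against 0.438 CPM, with a log2 ratio of 5.38, or 7.56 without doublets. The median log2 ratio of the list was -1.09, or 0.02 once centred.

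Among nuclear genes of oxidative phosphorylation, 20 of the 22 measured exceeded 2-fold and 0 fell below it, against the background of 10.4% higher, with a median log2 ratio of 1.53. Ndufa4 stood at 4408 CPM (4359 to 4457) against 318 CPM, in 100% of choroid plexus cells, and Cox6c at 3099 CPM against 442 CPM. In glycolysis, 9 of 18 genes were higher and 4 lower, beside backgrounds of 10.4% higher and 52.6% lower. Ldhb, the lactate dehydrogenase subunit of oxidative tissues, stood at 2225 CPM against 210 CPM and the glucose transporter Slc2a1 at 69.1 CPM against 454 CPM. Mixed barcodes held 59.5% of the Slc2a1 UMIs. The mitochondrial share was higher too, at 3.84% against 1.80% of summed UMIs.

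Antioxidant and metal genes gave 7 higher and 7 lower of 22, and the backgrounds of this list and the next were 10.4% higher and 52.6% lower. The metallothioneins Mt1 and Mt2 were lower, at 246 CPM against 5798 CPM and 17.2 CPM against 960 CPM, and the extracellular superoxide dismutase Sod3 was higher, at 44.0 CPM against 2.63 CPM. Of 20 genes of the secretory pathway and unfolded protein response, 6 were higher and 2 lower, with the chaperone Sdf2l1 at 131 CPM against 24.1 CPM. Hspa5, the main chaperone of the endoplasmic reticulum, was within 2-fold at 988 CPM against 809 CPM.

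Immediate early genes, which are switched on within minutes by stimulation or tissue dissociation, were lower for 19 of 19 measured genes. All measured genes were lower for 52.6%, and the median log2 ratio of the list was -3.96. Fos stood at 55.3 CPM (49.9 to 61.0) against 2028 CPM in ependymal, 1787 CPM in C1q-high and 3148 CPM in endothelial cells. A Fos UMI was found in 15.9% of choroid plexus cells, or 5.70% at 2000 UMIs, against 57.7% of ependymal and 83.8% of C1q-high cells at that depth. Jun stood at 76.3 CPM against 1887 CPM. With Hsp90aa1 left out, the list summed to 11852 CPM in ependymal and 30725 CPM in endothelial cells, and to 866 CPM in choroid plexus cells, whose per-cell median was 411 CPM.

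What immediate early RNA the choroid plexus cells held was concentrated. The 63 cells with the highest counts held 61.8% of it. The 27 barcodes with endothelial RNA held 38.0% and reached 5583 CPM, against 571 CPM in the other 597 cells and 526 CPM without any mixed barcode. With the mixed barcodes taken out of the choroid plexus group only, the median log2 ratio of the list was -5.30 and Fos was at 22.6 CPM. Without Scrublet doublets in either group that median was -4.78. Interferon response RNA had 25.1% in its 63 highest cells, from a larger sum of 31811 against 6129 UMIs. Ifi27 alone gave 2421 of its 4496 CPM and was seen in 99.5% of cells, while Isg15 was seen in 25%.

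**Figure D4:**
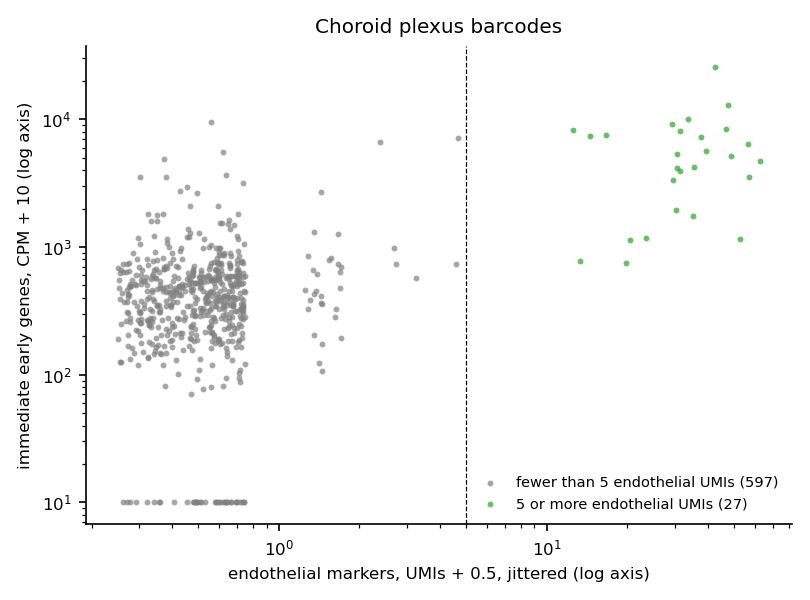
Each point is a choroid plexus barcode, with its endothelial marker UMIs on the horizontal log axis and its immediate early genes without Hsp90aa1, in CPM plus 10, on the vertical log axis. The 27 barcodes with at least 5 endothelial UMIs (green) lie high, at 5583 CPM in sum against 571 CPM in the other 597.

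Inflammatory genes were low beside ependymal cells. Of 18 measured acute phase, chemokine and adhesion genes, 15 stood lower and 1 stood higher. The backgrounds of this list and the interferon list were 52.6% lower and 10.4% higher. The median log2 ratio of the acute phase list was -3.40, or -2.50 over the 15 measured without Scrublet doublets, of which 13 were lower. Complement C3 and C4b stood at 2.26 CPM against 241 CPM and 2.69 CPM against 280 CPM, and the class I gene H2-K1 at 111 CPM against 1120 CPM. The higher gene was Vcam1, an adhesion molecule, at 271 CPM (259 to 283) against 84.7 CPM, present in 83.8% of choroid plexus cells. Of 20 interferon response genes, 16 stood lower and 2 higher, and the median log2 ratio was -3.02. Ifit3 stood at 37.0 CPM against 755 CPM, while Ifi27 stood at 2421 CPM against 882 CPM and Ifi27l2a at 375 CPM against 111 CPM.

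Hopx, the target of the virus, was well expressed in choroid plexus cells. It stood at 325 CPM (312 to 338), against 133 CPM (123 to 144) in ependymal, 10.2 CPM in C1q-high and 8.24 CPM in endothelial cells. A Hopx UMI was found in 85.9% of choroid plexus cells, or 43.8% (39.8 to 47.8) at 2000 UMIs, against 42.4% and 20.2% of ependymal cells and 2.90% and 0.907% of C1q-high cells. Single choroid plexus cells ranged from 0 to 2062 CPM with a median of 266 CPM. With no uninjected library at hand, whether this level was changed by the virus was not tested.

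The reporter transcripts were rare. EGFP was found in 7 choroid plexus cells, 1.12% (0.452 to 2.30), with 1 UMI each, against 7.11% (5.27 to 9.34) of ependymal cells. Transcripts of tdTomato were found in 81 choroid plexus cells, 13.0% (10.4 to 15.9), against 6.05% (4.36 to 8.15) of ependymal cells, 2.53% of endothelial cells and 1.01% of C1q-high cells. At 2000 UMIs the shares were 4.40%, 2.23%, 1.37% and 0.403%. At least 2 tdTomato UMIs were found in 43 choroid plexus cells, the highest count being 10. This compares with 15 ependymal cells and a highest count of 4, and 3 C1q-high cells and a highest count of 2. These counts were not brought to equal depth. UMIs of both reporters were seen in 0 of the 624 choroid plexus cells, which allows up to 0.481% of cells with UMIs of both (3 cells) and, with either transcript seldom detected, sets no limit on cells that carry both. Aldh1l1 itself, whose promoter drives the Cre, stood at 16.1 CPM (13.3 to 19.4) in choroid plexus cells and 28.7 CPM (24.0 to 34.0) in ependymal cells, against 4.38 CPM in C1q-high cells.

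Few genes differed by 2-fold between cells with a tdTomato UMI and those without. A tdTomato UMI was found in 13.0% of the cells, so cells without one may carry the reporter undetected. The comparison therefore sets no limit on how far cells that carry it differ from the others. Without the mixed barcodes, 18 of 5169 measured genes were at least 2-fold higher in the 78 cells with a UMI and 31 lower. Hopx stood at 340 CPM against 333 CPM, a ratio of 1.02 (0.893 to 1.16), and the level of Isg15 at 84.3 CPM against 49.0 CPM, a ratio of 1.72 (1.29 to 2.26). The median mitochondrial share was 2.71% in the cells with a UMI and 3.83% in those without.

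Within the choroid plexus cells, variation was measured after thinning the 544 cells with at least 5000 UMIs to that number. The median gene of 1309 at 100 CPM or more had a variance over mean of 1.13, close to counting noise, and 60 genes exceeded 2. Ttr, a gene of the rule, reached 117. Outside the rule Enpp2 was the most variable, at 19.4, followed by Tmsb4x at 10.7, the mitochondrial genes mt-Atp6, mt-Co1, mt-Co2 and mt-Co3 between 10.7 and 7.26, the cation channel Trpm3 at 6.52, Trf at 6.05, mt-Cytb at 5.64 and mt-Nd4 at 5.43. Mixed barcodes held 72.4% of the Tmsb4x UMIs, and its level of 10264 CPM in C1q-high cells was far above the 182 CPM in choroid plexus cells.

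Cells rich in mitochondrial RNA had a different profile from cells poor in it. With mixed barcodes left out, 202 of the cells with the highest mitochondrial share, median 5.90%, were set against 191 with the lowest, median 1.98%, at similar depths of 9816 and 10246 UMIs. Htr2c stood at 669 CPM against 269 CPM, a ratio of 2.49 (2.26 to 2.75), Trpm3 at 1240 CPM against 480 CPM and Enpp2 at 21433 CPM against 12720 CPM. Hopx was at 304 CPM against 380 CPM and tdTomato at 12.9 CPM against 51.6 CPM. The 22 nuclear genes of oxidative phosphorylation went the other way, with a median log2 ratio of -0.44, though 0 of them passed 2-fold. The mitochondrial share is also a common sign of cell quality, and its part in these differences was not tested.

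Cells high and low in Ttr also differed. With mixed barcodes left out, 206 of the cells with the highest Ttr share, median 27.2%, were set against 183 with the lowest, median 13.7%. Hopx was at 240 CPM against 473 CPM, a ratio of 0.508 (0.457 to 0.564), and Isg15 at 30.8 CPM against 86.5 CPM. Igfbp2 stood at 2861 CPM against 1797 CPM, Ecrg4 at 4896 CPM against 3180 CPM and Apoe at 5689 CPM against 3049 CPM. All measured genes had a median log2 ratio of -0.41 here, which a larger Ttr share in the total lowers by construction, and the log2 ratio of Hopx, -0.98, lies below that median. Over the 624 cells the Spearman rho of Ttr share with the summed level of the 4 other markers was 0.406, and 0.598 with Ttr left out of the totals of the markers. Both values come from genes by which the cells were chosen, and they share the cells' depth. They are given as description only.

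The cells were also clustered with the genes of the rule, the lists, the reporters and the mitochondrial genes left out, which gave 7 sub-clusters. Their leading genes come from the same cells and are description. Sub-cluster 0 held 143 cells with a median Ttr share of 15.3% and mitochondrial share of 1.85%. Its oxidative phosphorylation genes summed to 33632 CPM, Enpp2 was at 9267 CPM and Hopx at 471 CPM, and tdTomato, left out of the clustering, was among its 3 leading genes. Sub-cluster 3 held 141 cells at 24.3% Ttr, with Enpp2 at 23609 CPM and Hopx at 252 CPM, and was led by Cds1, Sema3b and Rdh10. The largest, sub-cluster 1, held 196 cells at 22.0% Ttr, and sub-cluster 2 held 68 cells at 16.5%. The share of cells with a tdTomato UMI was 18.2% (12.2 to 25.5) in sub-cluster 0, 16.3% (11.4 to 22.3) in sub-cluster 1 and 7.09% (3.45 to 12.7) in sub-cluster 3, at median depths of 9061, 9015.5 and 11840 UMIs.

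The 3 small sub-clusters held 37, 31 and 8 cells. Sub-cluster 4 held 37 cells with a median of 22153 UMIs and was led by 3 genes, among them the unnamed transcript Gm44511, the adhesion gene Cdh18, at 65.5 CPM against 1.43 CPM in the other choroid plexus cells, and the glutamate receptor gene Grm8, at 108 CPM against 4.78 CPM, with 1 doublet called and 0 mixed barcodes, and the part of its depth in these levels was not tested. Sub-cluster 5 held 31 cells led by the endothelial genes Ly6c1, Cldn5 and Abcb1a, of which 25 were called doublets and 29 were mixed barcodes. Sub-cluster 6 held 8 cells led by Nnat, Kcnip4 and Tmem212, all 8 called doublets.

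**Figure D5:**
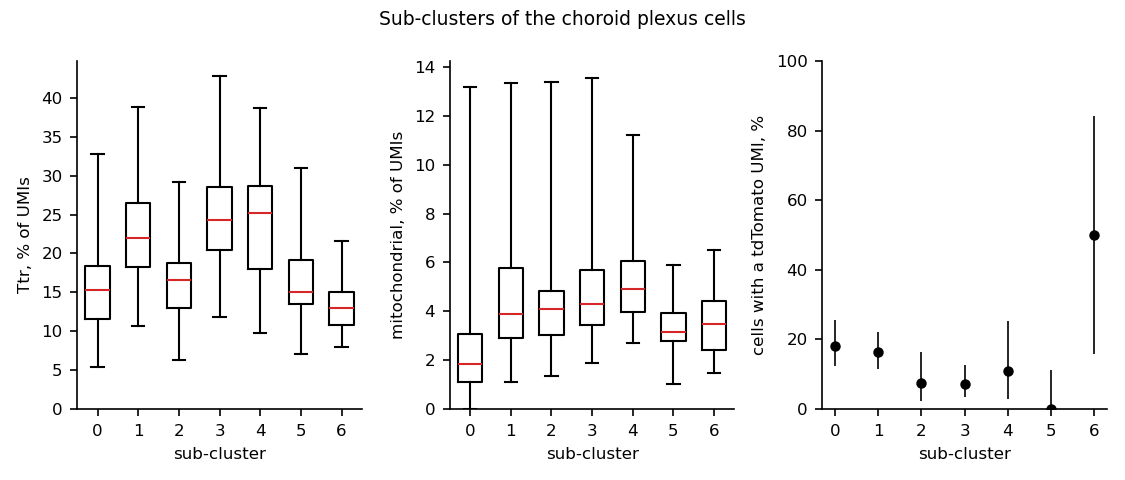
Ttr share and mitochondrial share of UMIs (box: quartiles, red line: median, whiskers: lowest and highest cell) and the share of cells with a tdTomato UMI (point with exact Clopper-Pearson 95% interval) in the 7 sub-clusters. Sub-cluster 0 has the lowest median mitochondrial share, 1.85%, and sub-clusters 3 and 4 the highest median Ttr shares, 24.3% and 25.2%.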

How the data were processed

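UMI counts per gene and barcode of 1 library were deposited by the authors, and the submitters' processing notes name Cell Ranger 8.0.1 and GRCm39. The gene annotation they used is not stated in any label or header read. Members and lists were chosen with earlier results of these data known. UMIs were summed per group of cells and divided by the group total (CPM), with exact Poisson intervals at 95%, binomial intervals for ratios and Clopper-Pearson intervals for shares. A gene was called higher or lower at 2-fold, with 0.5 UMI added on the log2 scale. Doublets were called with Scrublet (scanpy 1.11.5, expected rate 0.05) and kept, and their removal from every group was tried as an alternative. Sub-clusters used 1500 variable genes, 20 principal components, 15 neighbours and Leiden resolution 0.6. The rule for named genes took the 12 outside the rule for cells with the largest ratio in each direction at 100 CPM or more, Hopx, the reporters, the 10 most variable, and from each list up to 6 by ratio and 4 by level. The text describes some of these, picked with their values known. Lmx1a, Msx1, Igfbp2, Slc4a10, Slc4a2, Slc12a2, Slc2a12, Slc46a1, Abcg2, Ramp2, Isg15, Aldh1l1 and the leading genes of sub-clusters fall outside that rule and were chosen after their values were seen, and marker genes of cell types are named as such. Of the list symbols, 12 were not matched, and some list members are not reported here by name. The scripts were tested on simulated data. Python 3.11.15, numpy 2.4.6, scipy 1.17.1, pandas 2.3.3 and matplotlib 3.10.9 were used.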

Additional observations from a re-analysis of the deposited data

How the results depend on the processing

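The number of cells stayed between 586 (Ttr at least 10%) and 628 (Ttr at least 2%) under every cell filter tried. Against ependymal cells, counts of higher and lower genes moved by over 1.5 times in 4 settings: 505 and 1403 at 100 CPM or more, 352 and 2654 at 4-fold, 2427 and 2483 after centring on the median gene, and 7464 lower genes with no CPM minimum. Against all other cells the same settings gave 647 and 1224, 502 and 2538, 2465 and 2639, and 8203 lower genes. Fewer or more genes enter by construction, except with centring. With Ttr left out of the totals, 1315 genes were higher and 3853 lower than in ependymal cells. Centring turned the sign of Apoe to 0.058 and of the BMP, TGF-beta and Wnt median to 0.025, both log2. It also turned the medians of efflux (-0.69 to 0.43) and junction genes (-0.94 to 0.18), and Clu, Ift20, Ift57 and Aldh1l1, none past 2-fold, to 0.40, 0.69, 0.72 and 0.29. Removing Scrublet doublets moved 37 results, among them the log2 ratios of Nnat to -10.56, Lrp2 to -8.46 and C3 to -8.02, and left 937 genes higher and 4556 lower than in ependymal cells. Centring and the removal of mixed or C1q-rich barcodes were chosen after seeing the data. Counting depth limits ratios against ependymal sums of a few UMIs. No paired analysis was possible because 1 library has no replicate numbers and no result comes from a test.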
